A study of Homo sapiens with 24 samples.

Results

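The DEAD box and DEAH box genes code for the largest family of RNA helicases, and their own transcripts were followed here through the soluble and insoluble cytoplasm of U2OS cells. Members were all genes whose symbol is DDX or DHX followed by a number, with at most 1 further letter out of A, B, L and X. This rule found 54 of the 60308 genes of the exon count table, 38 DDX and 16 DHX genes, and 52 of the 37473 genes of the intron count table, which has no entry for DDX28 and DDX53. U2OS is a human osteosarcoma cell line that is widely used to image stress granules. Ctrl cells received 0.12% DMSO over 2 h. The other cells received 500 µM sodium arsenite over 60 min (NaAsO2), 6 µM RK-33 with a pre-treatment of 1 h (RK-33), or RK-33 followed by NaAsO2 at these doses (Combo). Arsenite causes oxidative stress and the assembly of stress granules, and RK-33 is an inhibitor of the ATPase of DDX3X, itself a member of the family. Lysates were cleared of nuclei and spun again, and the pellet of this faster spin is the insoluble fraction, which is enriched for stress granules and P-bodies but is not a purified granule. Each of the 4 treatments had 3 lysates and each lysate gave 2 libraries, 24 in all, in 8 groups of 3.

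A helicase of this family binds RNA through 2 RecA-like domains and uses ATP to pry short duplexes apart or to strip proteins off the strand. DEAD box members mostly open duplexes locally, whereas DEAH box members move along the strand in steps. Between them they drive nearly every stage of RNA life. DHX8, DHX15, DHX16 and DHX38 push the spliceosome from one state to the next, DDX39A, DDX39B and DDX19B escort mRNA out of the nucleus, DHX29 and DDX3X help the ribosome through structured leader sequences, DDX6 is a core component of P-bodies, and a large group that includes DDX10, DDX21, DDX24 and DHX33 matures ribosomal RNA. The values below are levels of the mRNAs that encode these proteins and of fragments from their introns. They say nothing of where the proteins were.

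Of the 54 members, 50 passed the filter of a mean of at least 1 CPM on exons, where CPM is a gene's count scaled to a common library total. The germ cell genes DDX4, DDX25 and DDX53 and the antiviral gene DHX58 did not, with 9, 108, 14 and 87 counts over all 24 libraries. DDX5, a coactivator of transcription that also acts in splicing, had the highest mean level of the tested members at 794 CPM, followed by DDX3X with 432, DDX17 with 375 and DDX21 with 372 CPM. The lowest was DDX58, the RNA sensor also known as RIG-I, with 2.77 CPM, and the median member had 73.5 CPM. Per kb of exon, DDX5 was again highest with 85.2 CPM per kb, and DHX9 came next with 54.9, ahead of DDX21 with 40.1 CPM per kb. Together the members held 0.434% to 0.665% of the exon counts of a library. Exons of 28 members overlap another gene, and 9 members share at least 10% of their exon bases in this way (DDX19A, DDX19B, DDX20, DDX39B, DDX43, DDX47, DDX58, DHX32 and DHX38). Some of the overlapping genes lie on the same strand, such as ATP6V1G2-DDX39B with DDX39B, and the counting used no strand for the others. The values of these 9 are therefore less certain.

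The libraries held 10968059 to 19799530 exon plus intron counts. Markers of a mesenchymal line were abundant, among them VIM with 258 to 1184 CPM, whereas none of the blood markers reached more than 2.1 CPM. Of the epithelial markers, KRT8 and KRT18 were also abundant, and COL1A2, a bone collagen gene, was near 0. Nuclear RNA was present in all fractions, with MALAT1 between 1315 and 15023 CPM. Group means of MALAT1 were lower in the insoluble than in the soluble fraction of each treatment, whereas those of NEAT1 and KCNQ1OT1 were higher, and their part in the results below was not tested. Replicate 3 of the NaAsO2 insoluble fraction stood apart. RN7SL1, the RNA of the signal recognition particle, took 5.79% of its exon counts against 0.426% to 1.23% in the other 11 insoluble libraries, and 21 of the 50 tested members lay more than 1.5-fold outside the range of the other 2 replicates (7 above, 14 below). In the other 23 libraries, this number was 6 in replicate 3 of the Combo insoluble fraction and at most 1 elsewhere. Levels are shares of a library, so they do not give the amount of RNA per cell. The paper scaled its comparison of the fractions to a spike-in control, which was not used here.

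DDX3X, the target of RK-33, is on chromosome X (41333348 to 41364472, plus strand, GRCh38). Its exon level was 412, 448 and 463 CPM in the Ctrl soluble libraries and 463, 494 and 532 CPM in the insoluble ones. After NaAsO2 the soluble libraries had 519, 451 and 499.9 CPM and the insoluble ones 544, 539 and 223 CPM. With RK-33 the levels were 405, 379 and 323 CPM in the soluble and 412, 378 and 392 CPM in the insoluble fraction. In the Combo libraries they were 409, 424 and 401 CPM and 445, 473 and 343 CPM. The fractions overlapped or touched in every treatment, and the lowest value of all was in the library that stood apart. None of the 13 differences tested on exons passed the threshold for DDX3X with edgeR's quasi-likelihood test, and the smallest Benjamini-Hochberg adjusted p was 0.324, for the insoluble fraction of RK-33 against Ctrl (log2 fold change -0.33, SE 0.20). That difference was called in a fit of the compared groups alone (-0.34, adjusted p = 0.00283) and without the library that stood apart (-0.32, adjusted p = 0.0223). Without that library DDX3X was also called lower in Combo than in NaAsO2 cells in the insoluble fraction (-0.42, adjusted p = 0.016), where the value with all 24 libraries was -0.05. This call was lost without that library when the compared groups were fitted alone (-0.40, adjusted p = 0.242). The fraction effect, meaning the log2 fold change of insoluble against soluble, was 0.17 in Ctrl and -0.17 after NaAsO2, each with an SE of 0.20. This SE rests on the spread in all 24 libraries and does not measure that of the compared groups only. The Ctrl libraries fitted alone gave 0.16 (adjusted p = 0.118). In a fit of the NaAsO2 libraries alone and without the library that stood apart, an alternative chosen after seeing the data, the fraction effect was 0.21 with an adjusted p of 0.0415. DDX6, its partner in cytoplasmic granules, had 208, 237 and 215 CPM in the soluble and 178, 200.5 and 202 CPM in the insoluble fraction of Ctrl and no called fraction effect in any treatment.

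In Ctrl cells, helicase mRNAs leaned to the insoluble fraction. Of the 50 tested members, 29 were higher there and 4 were lower, where 24.4% of all genes tested were higher and 26.6% lower. The median fraction effect of the members was 0.44 on the log2 scale, against -0.03 for all genes. DHX9, DHX57, DHX8 and DDX60L led the members that were higher, and the mRNA export helicases DDX19B, DDX39A and DDX39B were 3 of the 4 that were lower. The fourth was DDX59.

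DHX9, also called RNA helicase A, unwinds long double-stranded RNA and is encoded on chromosome 1 (182839347 to 182887982, plus strand). It had 124, 120.3 and 123 CPM in the Ctrl soluble libraries and 481, 533 and 600.4 CPM in the insoluble ones. The groups were far apart, with a 4.41-fold difference (log2 2.14, SE 0.12, adjusted p = 1.52e-11). DHX57, whose role is less settled, went from 38.6, 38.9 and 39.4 CPM to 90.1, 101 and 115 CPM between the fractions, a log2 difference of 1.39 (SE 0.12, adjusted p = 7.38e-09). The 3 libraries of each fraction were again clearly separate. DHX8, which releases the finished mRNA from the spliceosome, had 55.4, 64.1 and 62.1 CPM in the soluble and 127, 151 and 158 CPM in the insoluble fraction, a log2 difference of 1.26 (SE 0.12, adjusted p = 2.51e-08). DDX60L had 30.2, 33.9 and 37.6 CPM against 82.2, 82.9 and 99.2 CPM, a log2 difference of 1.38 (SE 0.16, adjusted p = 4.16e-07). DDX24, a ribosome biogenesis factor, differed less in size but as clearly, at 76.7, 81.8 and 80.7 CPM in the soluble against 128, 141 and 143 CPM in the insoluble fraction (log2 0.79, SE 0.09, adjusted p = 4.85e-07).

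The lower members were fewer and closer together. DDX19B, which removes proteins from mRNA at the nuclear pore, had 22.3, 28.3 and 21.3 CPM in the soluble and 15.3, 14.9 and 12.7 CPM in the insoluble fraction (log2 -0.75, SE 0.16, adjusted p = 0.000569). DDX39A, encoded on chromosome 19 (14408798 to 14419383, minus strand), had 101, 125 and 113 CPM against 69.3, 85.3 and 74.6 CPM (log2 -0.56, SE 0.13, adjusted p = 0.00137). Its near copy DDX39B, also called UAP56, had a log2 difference of -0.64 (SE 0.15, adjusted p = 0.00129), and the soluble and insoluble libraries did not overlap in either gene. By role, the members higher in the Ctrl insoluble fraction were 10 of 15 in splicing, mRNA packaging and export, 8 of 16 in ribosome biogenesis, 4 of 8 in translation and cytoplasmic mRNP, and the 3 tested antiviral members DDX58, DDX60 and DDX60L. The lower ones were 2 of 15, 0 of 16, 1 of 8 and 0 of 3 in the same order.

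**Figure D1:**
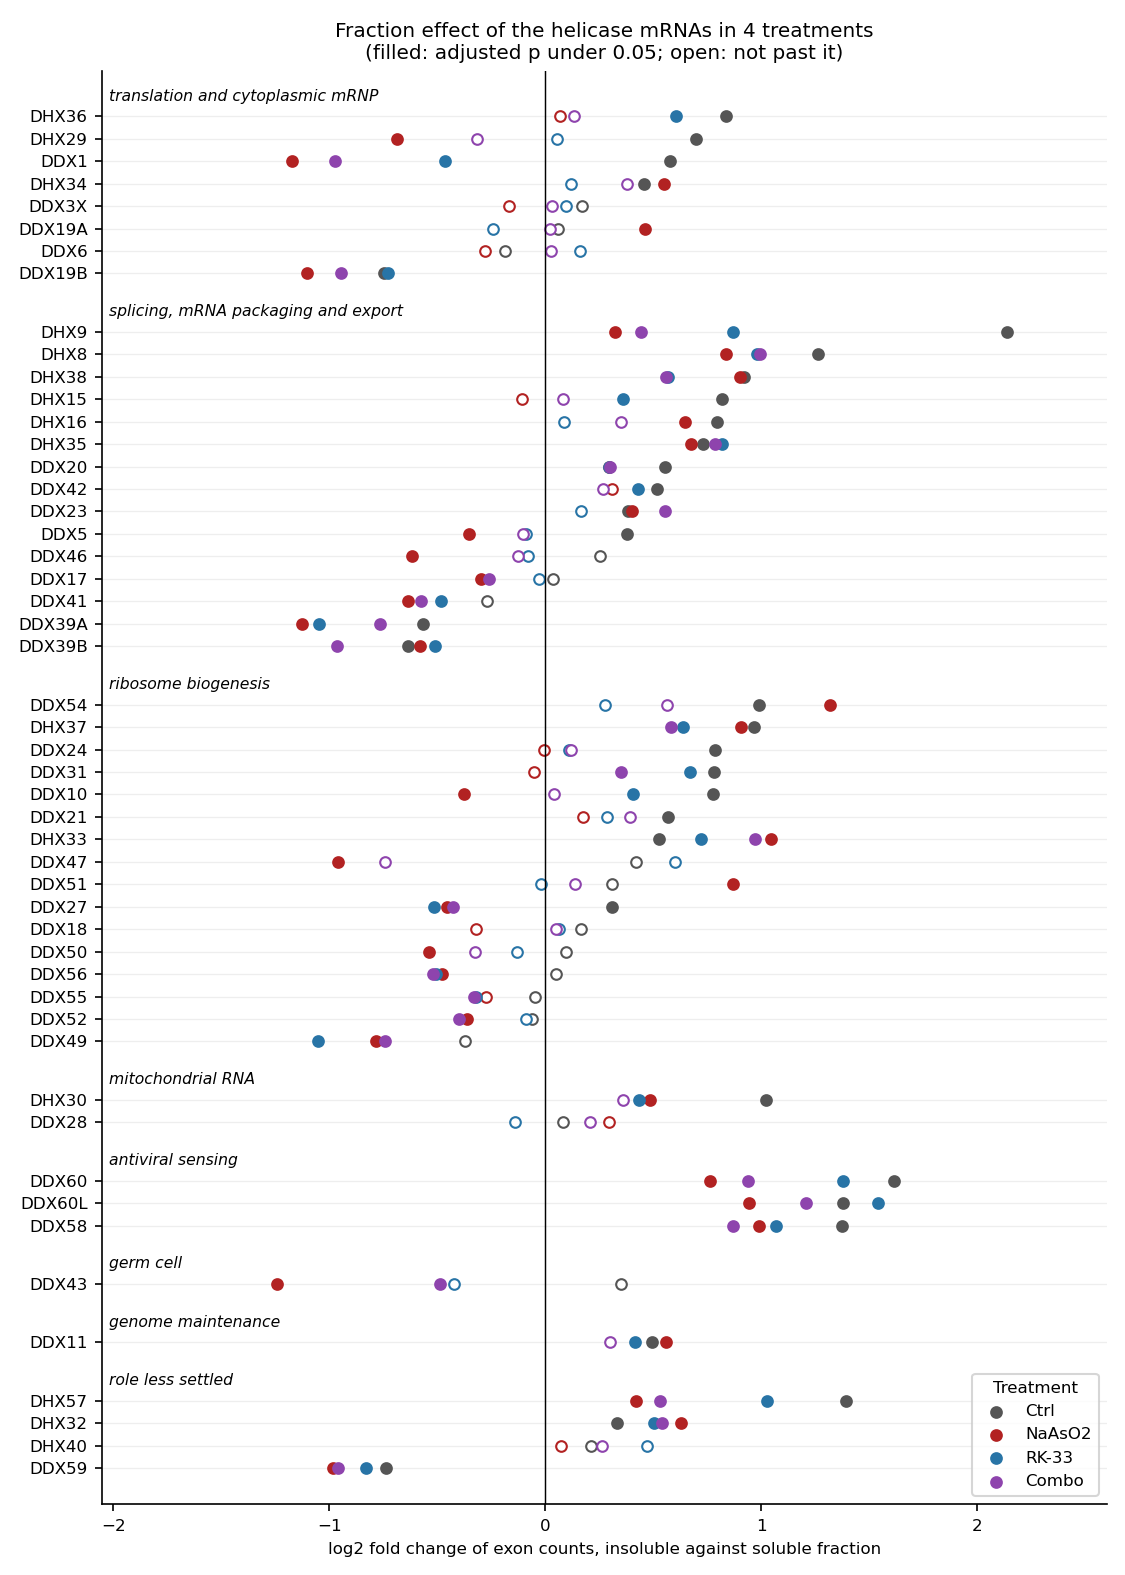
Fraction effect of each tested member in the 4 treatments, as the log2 fold change of exon counts between the insoluble and the soluble fraction, grouped by role (filled points, adjusted p under 0.05). In Ctrl most points lie to the right of 0, up to 2.14 for DHX9, and the points after NaAsO2 reach from -1.24 for DDX43 to 1.32 for DDX54, whose replicate 3 had 345 CPM against 123 and 128 CPM in the other insoluble libraries.

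Higher and lower calls were closer in number in the treated cells, and this difference in counts was not itself tested. After NaAsO2, 20 of 50 members were higher in the insoluble fraction and 18 lower (27.9% and 29.7% of all genes), with a median fraction effect of 0.03 on the log2 scale for members and for all genes alike. With RK-33, 19 were higher and 10 lower (29.2% and 30.4% of all genes), with a median of 0.14 for the members and -0.01 for all genes. In the Combo cells, 14 were higher and 13 lower (24.1% and 28% of all genes), with a median of 0.13. In a fit of the 6 NaAsO2 libraries alone the counts were 9 higher and 6 lower, and without the library that stood apart they were 25 and 17. Leaving that library out of the fit of all groups gave 22 higher and 11 lower with RK-33, and 21 and 16 in Combo cells.

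The members that led the lists were these. After NaAsO2 the smallest adjusted p among the higher members belonged to DHX33, with a fraction effect of 1.04 (SE 0.10, adjusted p = 9.06e-09), ahead of DHX8 and of DHX38, a spliceosomal ATPase, with 0.90 (SE 0.14, adjusted p = 7.24e-06). Among the lower ones were DDX1, DDX39A, DDX19B, DDX43 and DDX41, a splicing factor with -0.63 (SE 0.12, adjusted p = 0.000146), which with the NaAsO2 libraries alone had an adjusted p of 0.054. With RK-33, DDX49 of ribosome biogenesis was lower in the insoluble fraction by a log2 value of -1.05 (SE 0.21, adjusted p = 0.000247). In Combo cells DHX33 had 62.3, 62.0 and 50.5 CPM in the soluble libraries and 109, 111 and 122 CPM in the insoluble ones (log2 0.97, SE 0.10, adjusted p = 4.53e-08), whereas DDX1 had 216, 191 and 180.4 CPM against 96.8, 98.3 and 104 CPM (log2 -0.97, SE 0.10, adjusted p = 7.06e-08). The fractions did not overlap in either gene and were in opposite order.

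Some members kept their direction throughout. In all 4 treatments, 12 members were higher in the insoluble fraction (12.4% of all genes were): DDX20, DDX58, DDX60, DDX60L, DHX8, DHX9, DHX32, DHX33, DHX35, DHX37, DHX38 and DHX57. With the NaAsO2 libraries fitted alone, 9 members in all were called higher after NaAsO2, so not all 12 were called in that fit. The list holds the 3 tested antiviral members and 5 members with a role in splicing or mRNA packaging, among them DDX20, a subunit of the SMN complex that loads Sm proteins. DHX8 kept a log2 difference of 0.84 after NaAsO2, 0.98 with RK-33 and 0.99 in Combo cells (SE 0.12 each). DDX60L, whose relative DDX60 is induced by interferon, had 0.94, 1.54 and 1.21 (SE 0.16 each), with insoluble levels of 92.0, 84.3 and 95.2 CPM against 33.5, 32.0 and 27.7 CPM in the RK-33 soluble libraries. DDX58 had few counts, with levels of 0.898 to 6.28 CPM over all libraries.

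Another 4 members were lower in the insoluble fraction in all 4 treatments (17.3% of all genes were): DDX19B, DDX39A, DDX39B and DDX59. DDX39A went after NaAsO2 from 165, 153 and 176 CPM in the soluble libraries to 64.0, 70.3 and 92.5 CPM in the insoluble ones, a 2.18-fold difference (log2 -1.12, SE 0.13, adjusted p = 2.28e-07). DDX19B had a log2 difference of -1.10 after NaAsO2, -0.73 with RK-33 and -0.94 in Combo cells (SE 0.16 each). Its near copy DDX19A did not follow, since it was higher in the insoluble fraction after NaAsO2 (21.1, 16.7 and 26.4 CPM against 16.1, 15.7 and 14.6 CPM) and not called in the other treatments. The highest of these DDX19A values, 26.4 CPM, was in replicate 3, the library that stood apart. Both DDX19A and DDX19B overlap exons of the gene ENSG00000260537 on the same strand, so the contrast between these copies is less certain. Members called in none of the 4 treatments were DDX3X, DDX6, DDX18, DDX28 and DHX40, 5 of 50 against 17.9% of all genes. Across the 50 members, the fraction effect had a Spearman rho with exon length of 0.37 in Ctrl, 0.25 after NaAsO2, 0.43 with RK-33 and 0.27 in Combo cells, given as a description since all members share the same libraries.

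Some members lay on opposite sides in Ctrl and NaAsO2 cells. Of the 50, 5 were higher in the insoluble fraction of Ctrl and lower there after NaAsO2 (DDX1, DDX5, DDX10, DDX27 and DHX29; 0.928% of all genes), whereas 0 went the opposite way (0.759% of all genes). The difference between the fraction effects was tested as an interaction. It was lower after NaAsO2 than in Ctrl for 16 of 50 members and higher for 1, DHX33, where 11.4% of all genes were lower and 11% higher. The median over the members was -0.37 on the log2 scale, against -0.02 over all genes. With library size alone the median of all genes was 0.08, and 15 members had a lower and 1 a higher fraction effect (1307 and 2542 of 17666 genes).

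DDX1, which belongs to the tRNA ligase complex and is found in RNA granules, is encoded on chromosome 2 (15591178 to 15634346, plus strand). In Ctrl it had 137, 154 and 151 CPM in the soluble and 199, 223 and 238 CPM in the insoluble fraction. With NaAsO2 its soluble libraries had 250.1, 233 and 245 CPM and its insoluble ones 108, 104 and 112 CPM. The order of the fractions was turned round, with no overlap in either treatment. Its fraction effect went from 0.58 (SE 0.10, adjusted p = 8.65e-05) to -1.17 (SE 0.10, adjusted p = 2.53e-09), and the interaction was -1.75 (SE 0.15, adjusted p = 1.22e-07). DHX9 had the largest interaction of the members, -1.82 (SE 0.17, adjusted p = 2.55e-07), with 287, 267 and 298 CPM in the soluble libraries of NaAsO2 and 388, 402 and 276 CPM in the insoluble ones. Its fraction effect there was 0.32 (SE 0.12, adjusted p = 0.0211), so it was still higher in the insoluble fraction, but replicate 3 lay among the soluble libraries.

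DHX29 binds the small ribosomal subunit and is encoded on chromosome 5 (55256055 to 55307694, minus strand). It had 37.7, 41.0 and 41.7 CPM in the soluble and 60.8, 64.9 and 69.4 CPM in the insoluble fraction of Ctrl, and 57.4, 64.3 and 64.0 CPM against 45.9, 42.8 and 26.1 CPM after NaAsO2. The interaction was -1.38 (SE 0.21, adjusted p = 7.13e-05). The other members with a lower fraction effect after NaAsO2 were DDX43, DDX47, DDX10, DHX57, DHX15, DDX46, DDX31, DDX24, DHX36, DDX27, DDX5, DDX50 and DDX39A, with interactions from -1.59 for DDX43 to -0.56 for DDX39A. By role the 16 members with a lower fraction effect, DHX9, DDX1 and DHX29 included, were 6 of 16 in ribosome biogenesis, 5 of 15 in splicing and export, and 3 of 8 in translation, plus the cancer-testis gene DDX43 and DHX57. DHX33, a ribosome biogenesis factor on chromosome 17 (5440917 to 5468982, minus strand), moved the other way, with 53.9, 61.9 and 60.7 CPM against 81.3, 81.0 and 92.3 CPM in Ctrl and 55.4, 56.4 and 56.8 CPM against 111, 121 and 116 CPM after NaAsO2 (interaction 0.52, SE 0.14, adjusted p = 0.0114), a call that was lost without a filter on low counts (adjusted p = 0.108). The 3 insoluble libraries after NaAsO2 agreed closely for DHX33 and DDX1, and not for DHX9 and DHX29. Without the library that stood apart and in a fit of the compared groups alone, the interaction was -1.56 for DHX9, -1.68 for DDX1, -1.08 for DHX29 and 0.62 for DHX33, and 23 members were called. The compared groups alone with all their libraries gave 11 calls, and the fit of all groups without a filter on low counts gave 10.

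**Figure D2:**
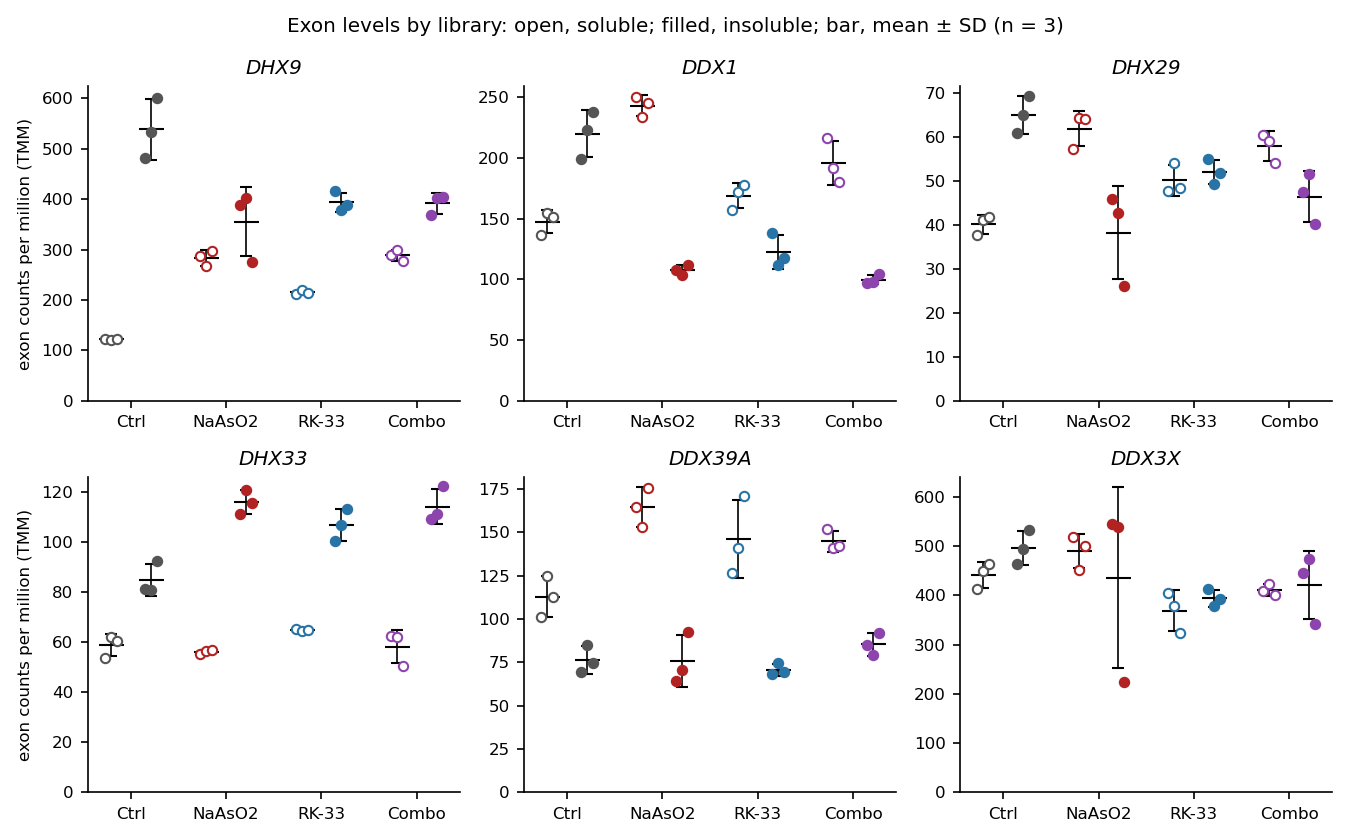
Exon level in CPM of 6 members in each of the 24 libraries (open points, soluble; filled points, insoluble; bars, mean ± SD, n = 3). DHX9 lies at 481 to 600.4 CPM in the Ctrl insoluble libraries and at 120.3 to 124 CPM in the soluble ones, DDX1 is turned round after NaAsO2, and for DDX3X the low value after NaAsO2 is replicate 3 of the insoluble fraction with 223 CPM.

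Seen within each fraction, the mRNAs of several helicases rose in the soluble and fell in the insoluble cytoplasm after NaAsO2. In the soluble fraction 11 members rose and 1 fell against Ctrl (6.31% and 7.0% of all genes), with a median of 0.30 for the members and 0.03 for all genes. DHX9 rose 2.32-fold (log2 1.22, SE 0.12, adjusted p = 8.98e-07), DDX1 1.65-fold (log2 0.72, SE 0.10, adjusted p = 0.00011) and DHX57 by 0.61 on the log2 scale (SE 0.12, adjusted p = 0.00198). Also higher were DDX10, DDX24 and DDX27 of ribosome biogenesis, DDX39A, DHX8 and DHX15 of splicing and export, DHX29 and the mitochondrial ribosome factor DHX30. The member that fell was DDX17, close in sequence to DDX5, from 489, 387 and 436 CPM to 353, 354 and 345 CPM (log2 -0.32, SE 0.10, adjusted p = 0.0456), a call that was lost with RLE factors (adjusted p = 0.0598), without a filter, with exon plus intron counts and in 10 of the fits that left out 1 library. With library size alone the median of all genes was -0.15 in place of 0.03, and 7 members rose and 2 fell (486 and 2397 of 17666 genes).

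In the insoluble fraction 15 members fell and 6 rose after NaAsO2 (21.8% and 21.2% of all genes), with a median of -0.19 for the members and -0.02 for all genes. DDX1 fell 2.04-fold (log2 -1.03, SE 0.10, adjusted p = 2.27e-07). DDX17 fell from 458, 436 and 451 CPM to 283, 281 and 292 CPM (log2 -0.65, SE 0.10, adjusted p = 5.69e-05), and DDX5 from 927, 935 and 994 CPM to 715, 661 and 577 CPM (log2 -0.55, SE 0.09, adjusted p = 0.000117). The pair of paralogs thus fell together in this fraction, without overlap with Ctrl. DHX33 rose by 0.45 (SE 0.10, adjusted p = 0.00119). DDX51 and DDX54, also of ribosome biogenesis, were called higher with log2 values of 0.90 (SE 0.25, adjusted p = 0.00626) and 0.94 (SE 0.26, adjusted p = 0.00666), but replicate 3 carried much of this, with 119 CPM of DDX51 against 48.7 and 51.4 CPM, and 345 CPM of DDX54 against 123 and 128 CPM. Without it and with the compared groups alone, these values were 0.46 and 0.37. That fit called 27 members. The fit of the 6 libraries with replicate 3 called 3, and DDX5 (adjusted p = 0.0892), DHX33 (adjusted p = 0.0684), DDX51 and DDX54 were not among them. The split also moved with the scaling, to 10 higher and 13 lower with RLE factors (the size factors of DESeq2) and to 4 higher and 19 lower with library size alone. Of 17666 genes, 4214 were higher and 3402 lower with RLE factors, and 3168 and 3984 with library size alone.

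**Figure D3:**
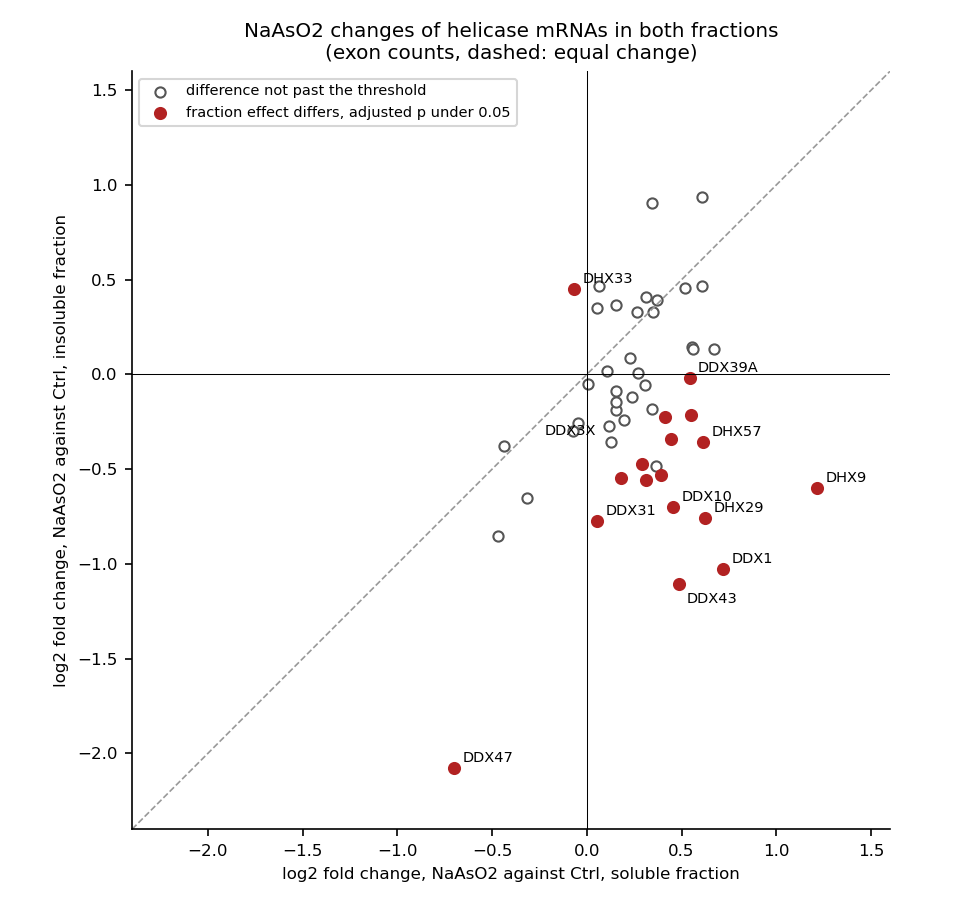
Log2 fold change of NaAsO2 against Ctrl for each tested member in the soluble (x) and the insoluble fraction (y), from exon counts, with the line of equal change dashed. The filled points, with a called difference between the fractions, lie below the line, as DHX9 at 1.22 and -0.60, except DHX33.

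In the fit of all 8 groups, RK-33 alone gave fewer calls against Ctrl than NaAsO2. In the soluble fraction 8 members rose and 0 fell against Ctrl (2.09% and 3.24% of all genes): DDX10, DDX23, DDX24, DDX27, DHX8, DHX9, DHX30 and DHX38. DHX9 rose 1.76-fold, to 212, 221 and 215 CPM (log2 0.82, SE 0.12, adjusted p = 0.000214), DDX24 by 0.46 on the log2 scale (SE 0.09, adjusted p = 0.00367) and DHX8 by 0.57 (SE 0.12, adjusted p = 0.0059). The call of DDX24 was lost without a filter on low counts (adjusted p = 0.126). In the insoluble fraction 1 member rose and 5 fell (5.71% and 8.19% of all genes). DHX33 rose by 0.33 (SE 0.10, adjusted p = 0.0284), while DDX1 fell by 0.84 (SE 0.10, adjusted p = 8.67e-06), to 139, 112 and 118 CPM, DDX5 by 0.46 (SE 0.09, adjusted p = 0.00197) and DHX9 by 0.45 (SE 0.12, adjusted p = 0.0108). DDX27 and DDX43 also fell. With library size alone the split in the insoluble fraction was 4 higher and 3 lower (1354 and 1171 of 17666 genes), and DHX9 was not called (adjusted p = 0.077). Without a filter on low counts 1 member was called there, DDX1, and the adjusted p was 0.471 for DHX33, 0.0876 for DDX5 and 0.0947 for DHX9. The calls of DHX33 and DHX9 were also lost with exon plus intron counts (adjusted p = 0.0949 and 0.101) and in 4 and 3 of the fits that left out 1 library. With the compared groups alone, the counts were 17 (soluble) and 18 (insoluble), where NaAsO2 against Ctrl had 30 and 3. The counts of calls moved with single libraries: leaving out 1 of the 24 gave 2 to 18 calls in the soluble fraction and 2 to 14 in the insoluble one, the highest each time without replicate 3 of the NaAsO2 insoluble fraction.

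The fraction effect with RK-33 was lower than in Ctrl for 4 members and higher for 0 (1.58% and 0.606% of all genes). The 4 were DHX9 (-1.27, SE 0.17, adjusted p = 0.000375), DDX1 (-1.04, SE 0.15, adjusted p = 0.000493), DDX27 (-0.83, SE 0.16, adjusted p = 0.00598) and DDX24 (-0.68, SE 0.13, adjusted p = 0.00797). Without a filter DDX27 was not called (adjusted p = 0.0613). All 4 also had a lower fraction effect after NaAsO2, in a comparison that uses the same Ctrl libraries. DDX27 had 59.7, 65.2 and 67.7 CPM in the soluble and 47.4, 43.3 and 43.9 CPM in the insoluble fraction with RK-33, after 45.2, 50 and 47.0 CPM and 55.0, 64.0 and 57.3 CPM in Ctrl. In both treatments, then, the fractions did not overlap and were in opposite order. Without replicate 3 of the NaAsO2 insoluble fraction 14 members were called. With library size alone the median of all genes was 0.14 in place of 0.01, with the same split of 0 higher and 4 lower (225 and 224 of 17666 genes).

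How many helicase mRNAs differed between Combo and NaAsO2 cells depended on the fit. In the soluble fraction 0 of 50 members were called in either direction (4.79% of all genes were higher and 1.67% lower). edgeR's test gave an unadjusted p under 0.05 for 4 members there, DESeq2 called 2, and the fit of the compared groups alone called 7. In the insoluble fraction 4 rose and 0 fell (6.88% and 6.90% of all genes), whereas RLE factors gave 4 higher and 4 lower (1052 and 1726 of 17666 genes). DDX10, a large ribosomal RNA processing factor, had 65.0, 50.2 and 39.6 CPM after NaAsO2 and 91.3, 93.1 and 75.3 CPM in Combo cells (log2 0.74, SE 0.13, adjusted p = 0.000811). DDX31 had 33.8, 32.6 and 22.7 CPM against 46.9, 50.1 and 42.5 CPM (log2 0.64, SE 0.13, adjusted p = 0.00363), DDX5 rose by 0.37 (SE 0.09, adjusted p = 0.0125), and DDX43 was the fourth. The Combo libraries lay above those of NaAsO2 for DDX10, DDX31 and DDX5. With only the compared groups in the fit 0 members were called in the insoluble fraction, with or without the library that stood apart, and DDX10 then had 0.56 (adjusted p = 0.133) without it. Replicates with the same number deviated together between these 2 groups (r = 0.459, 0.383 and 0.667 on exons). So did Combo replicate 2 with NaAsO2 replicate 1 (r = 0.593) and Combo replicate 1 with NaAsO2 replicate 2 (r = 0.25). Pairs of replicate 3 with the other numbers had r from -0.71 to -0.416. The correlations therefore do not show that the numbers pair the samples. With the replicate number as a block 1 member was called, DDX10 (adjusted p = 0.0309), while DDX31 (adjusted p = 0.0529) and DDX5 (adjusted p = 0.146) were not. No fraction effect of a member differed between Combo and NaAsO2 (0 of 50 in each direction, 0.136% of all genes higher and 0.221% lower). edgeR gave an unadjusted p under 0.05 for 5 members, and DESeq2 called 0.

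Fragments from introns were counted for the same genes. Such fragments can come from unspliced or retained sequence, from excised introns or from lariats, and the counts do not tell these apart. Values are in CPM of a library's intron counts. Introns took 7.83% to 14.4% of the members' exon plus intron counts in the soluble and 6.90% to 20.9% in the insoluble libraries. Of the 52 members in the intron table, 44 passed the filter, and DDX19A, DDX39B, DDX47, DDX49 and DDX58 were listed at 0 in all libraries. DHX34, which acts in nonsense-mediated decay, was lower in the insoluble fraction in all 4 treatments, as 5.76% of all genes were, and 0 members were higher in all 4 (4.52% of all genes). DHX34 introns had 66.3, 77.0 and 56.8 CPM in the soluble and 24.5, 21.1 and 17.8 CPM in the insoluble fraction of Ctrl (log2 -1.65, SE 0.23, adjusted p = 3.35e-06). After NaAsO2 the call of DHX34 was lost with the NaAsO2 libraries alone (adjusted p = 0.0721). Its exons went the other way in Ctrl, where it was among the members higher in the insoluble fraction.

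Intron counts of other members split by treatment. In Ctrl 8 of 44 were higher in the insoluble fraction and 7 lower (18.2% and 21.4% of all genes), and with RK-33 7 were higher and 10 lower (23% and 24.8%). After NaAsO2 the counts were 2 and 7 (11.9% and 10.9% of all genes), and in Combo cells 1 and 15 (13.6% and 16.3%). DDX10 introns had 287, 251 and 308 CPM against 582, 568 and 550.5 CPM in Ctrl (log2 1.01, SE 0.17, adjusted p = 6.07e-05) and a log2 difference of 1.2 with RK-33 (SE 0.17, adjusted p = 3.17e-06). DDX11, a DNA helicase of sister chromatid cohesion, was lower in the insoluble fraction by 0.76 in Ctrl, 1.06 after NaAsO2 and 0.92 in Combo cells on the log2 scale (SE 0.17 each). These directions are relative to the intron counts of a library. Scaling by the exon library sizes instead moved the median of all genes from -0.11 to 0.63 in Ctrl and from -0.09 to 0.83 with RK-33. Then 20 members were higher and 1 lower in Ctrl, 27 and 0 with RK-33, 2 and 1 after NaAsO2 and 0 and 2 in Combo cells. Of all genes, 6402 were higher and 548 lower in Ctrl, 7905 and 609 with RK-33, 2190 and 564 after NaAsO2, and 1743 and 941 in Combo cells. DDX10 kept its calls in Ctrl and RK-33 cells. DHX34 was still called in Ctrl (-0.95, adjusted p = 0.00659) and in Combo cells but not in the others. DDX11 was then called after NaAsO2 and in Combo cells and not in Ctrl (-0.05, adjusted p = 0.874). With the intron library size alone, the counts were 1 and 16, 2 and 20, 0 and 14, and 0 and 24 in the same order. Of the 17406 genes tested, 1535 were then higher and 6668 lower in Ctrl, 1943 and 7790 with RK-33, 1025 and 3589 after NaAsO2, and 1105 and 4847 in Combo cells.

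After NaAsO2 the introns of several ribosome biogenesis genes fell. In the insoluble fraction 14 members fell and 2 rose against Ctrl (12.6% and 18.7% of all genes), among them 6 of the 14 tested ribosome biogenesis members and 0 of these 14 rose. With the compared groups alone 6 members were called. Of the 3 tested nuclear RNA markers 2 were lower and 0 higher in this comparison, with a median of -0.88, and MALAT1 went from 5228 to 6857 CPM in the Ctrl libraries to 1315 to 2447 CPM and NEAT1 from 1558 to 1915 CPM to 811 to 995 CPM. Their part in the intron values was not tested. DDX18 introns went from 46.5, 50.8 and 39.0 CPM to 17.7, 15.3 and 8.51 CPM (log2 -1.69, SE 0.19, adjusted p = 6.92e-07). DDX21 introns went from 76.4, 68.5 and 70.5 CPM to 24.5, 23.1 and 37.0 CPM (log2 -1.36, SE 0.16, adjusted p = 7.54e-07). DDX18 and DDX21 act in the nucleolus, and their exon levels in this comparison were not called. Scaled by exon library sizes, 29 members fell and 0 rose (7051 and 349 of all genes), with a median of all genes of -0.72 in place of 0.09. In the soluble fraction 3 members fell and 0 rose (3.42% and 1.86% of all genes), DDX21, DDX55 and DDX42. The calls of DDX55 and DDX42 were lost when replicate 1 or 2 of the Ctrl or the NaAsO2 soluble fraction was left out (adjusted p from 0.0585 to 0.177). With RK-33 against Ctrl, 0 members were called in the soluble fraction (0.971% of all genes higher, 0.103% lower) and 1, DHX38, was higher in the insoluble fraction with 0 lower (2.07% and 0.735%). DHX38 passed the threshold in 24 of 32 alternatives of this value. For the soluble fraction edgeR gave an unadjusted p under 0.05 for 4 members, and DESeq2 called 0.

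Intron counts of DDX3X, the gene whose product RK-33 inhibits, were higher in Combo cells in both fractions. Its introns had 14.2 to 25.2 CPM in the 18 libraries of Ctrl, NaAsO2 and RK-33, and 37.0, 45.2 and 39.2 CPM in the soluble and 42.9, 37.4 and 40.5 CPM in the insoluble fraction of Combo cells. Each of the 6 Combo libraries lay above the 18 others. Against NaAsO2, the log2 difference was 1.21 in the soluble (SE 0.20, adjusted p = 7.35e-05) and 1.03 in the insoluble fraction (SE 0.19, adjusted p = 0.000172). With the compared groups alone the call in the insoluble fraction was lost (1.04, adjusted p = 0.0504). Nuclear RNA markers were higher in the same comparison, 2 of 3 in the soluble (median 0.93) and 3 of 3 in the insoluble fraction (median 1.15). In the insoluble libraries MALAT1 had 1315 to 2447 CPM after NaAsO2 and 4021 to 4540 CPM in Combo cells, and KCNQ1OT1 had group means of 37.2 and 136 CPM. Their part in the DDX3X values was not tested. Introns then made up 2.74% ± 0.58 (SD, n = 3) of the DDX3X counts in the soluble Combo libraries and 3.06% ± 0.26 in the insoluble ones, against 0.81% ± 0.34 and 1.68% ± 1.58 after NaAsO2, where replicate 3 of the insoluble fraction had 3.49%. Scaled by exon library sizes, the differences were 1.55 (adjusted p = 0.000247) and 1.28 (adjusted p = 0.00142).

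Similar values were seen for a few other genes. DDX24 introns (chromosome 14, 94048287 to 94081202, minus strand) had 20.3, 28.8 and 35.3 CPM in the soluble and 28, 32.3 and 23.7 CPM in the insoluble Combo libraries, against 6.41 to 14.8 CPM in the other 18. The differences from NaAsO2 were 1.12 (SE 0.24, adjusted p = 0.0013) and 1.75 (SE 0.24, adjusted p = 2.75e-06) on the log2 scale. DDX43 introns had 44.7, 51.3 and 46.4 CPM and 41.2, 41.2 and 42.3 CPM, with differences of 1.36 (SE 0.27, adjusted p = 0.000592) and 1.14 (SE 0.26, adjusted p = 0.00157). DDX5, whose introns span only 635 bases outside exons, had 9.35, 9.35 and 8.66 CPM in the insoluble Combo libraries against 3.39, 2.49 and 3.70 CPM after NaAsO2 (log2 1.5, SE 0.33, adjusted p = 0.00135). These rest on few fragments, since DDX5 had 344 intron counts over all 24 libraries, 3 to 44 in each. For DDX24, DDX43 and DDX5 no Combo library overlapped with the NaAsO2 libraries of the same fraction.

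**Figure D4:**
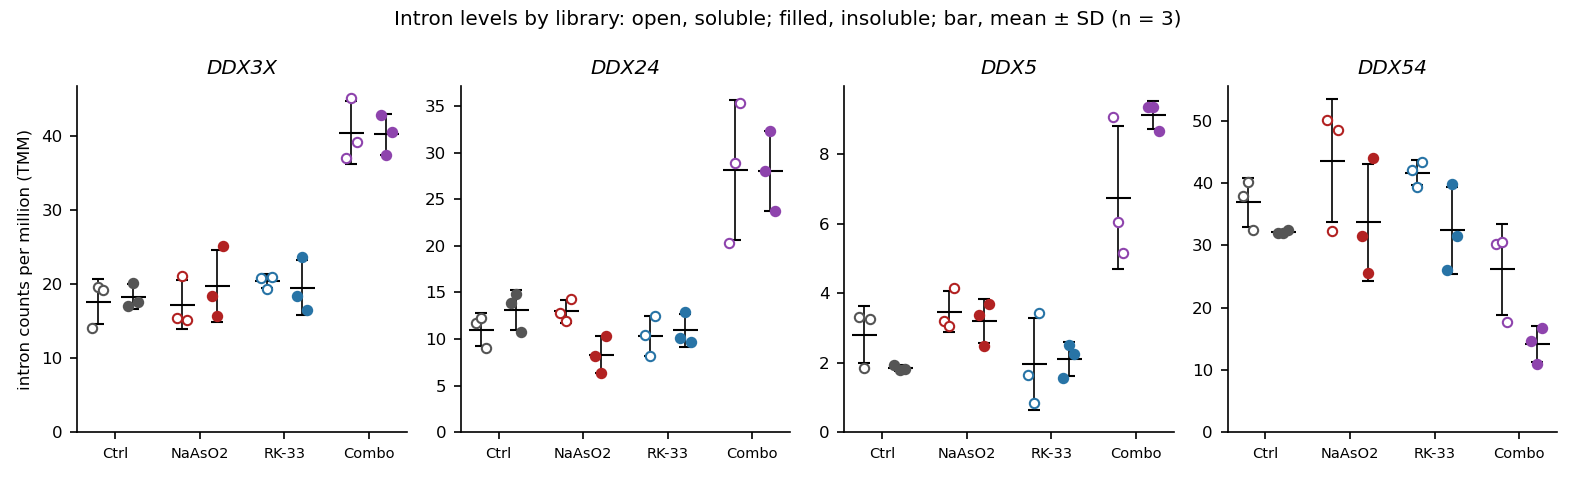
Intron level in CPM of 4 members in each of the 24 libraries (open points, soluble; filled points, insoluble; bars, mean ± SD, n = 3). DDX3X lies at 37.0 to 45.2 CPM in the Combo libraries and at 14.2 to 25.2 CPM elsewhere, while DDX54 is lowest in the Combo insoluble libraries, at 11 to 16.8 CPM.

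More members fell than rose. Against NaAsO2, 5 members rose and 16 fell in the insoluble fraction of Combo cells (13.1% and 13.5% of all genes), and 3 rose and 5 fell in the soluble one (9.54% and 4.83%). The members that fell in the insoluble fraction were 6 of 14 in ribosome biogenesis, 6 of 14 in splicing and export, DDX1 and DDX6 of translation, DHX30 and DHX57. DDX54 introns fell from 31.5, 25.6 and 44.0 CPM to 14.7, 11 and 16.8 CPM (log2 -1.25, SE 0.23, adjusted p = 0.000183), and DDX55 introns from 26.6, 32.0 and 37.7 CPM to 12.7, 13.2 and 16.3 CPM (log2 -1.18, SE 0.19, adjusted p = 3.75e-05). The libraries did not overlap for either gene. DHX15 introns fell in the soluble fraction too, from 108, 103 and 98.4 CPM to 65.6, 67.3 and 62.4 CPM (log2 -0.66, SE 0.15, adjusted p = 0.00304). Scaling by exon library sizes moved the median of all genes from -0.06 to 0.22 in the insoluble and from -0.0021 to 0.33 in the soluble fraction. Then 5 members rose and 2 fell in the insoluble fraction, DDX54 and DDX55 (2351 and 388 of all genes). In the soluble one 7 rose and 0 fell (2143 and 30 of all genes). With the compared groups alone, 4 members were called in the insoluble fraction, and 11 without the library that stood apart. Of the 394 circular RNAs in the deposited table, 0 had a member as host gene.

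**Figure D5:**
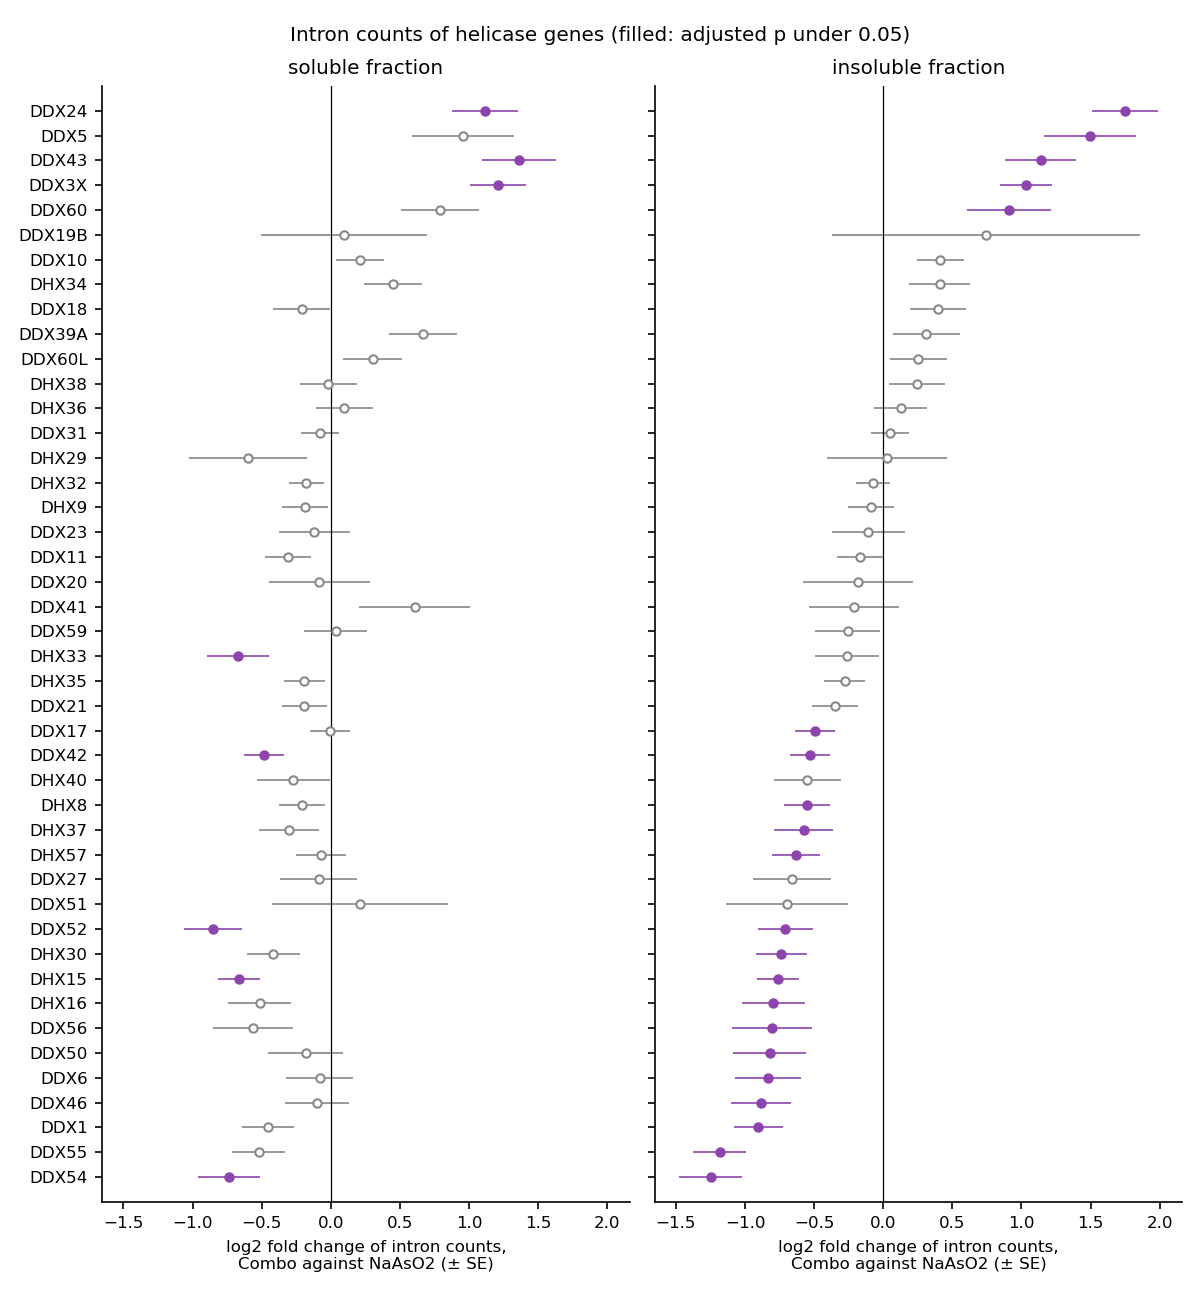
Log2 fold change (± SE) of intron counts of Combo against NaAsO2 for the 44 tested members in each fraction (filled, adjusted p under 0.05). DDX24, DDX5, DDX43, DDX3X and DDX60 lie to the right in the insoluble fraction and 16 members lie to the left, down to -1.25 for DDX54.

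Of 14 tested among 16 listed helicases outside the naming rule (such as EIF4A1, UPF1, MOV10 and SNRNP200), 8 were higher in the Ctrl insoluble fraction and 0 lower, where 24.4% of all genes were higher and 26.6% lower. Their median was 1.08 on the log2 scale, and 5 were higher and 3 lower after NaAsO2 (27.9% and 29.7% of all genes). Their fraction effect was lower after NaAsO2 than in Ctrl for 6 and higher for 0, with a median of -0.54, where 11.4% of all genes were lower and 11% higher. The counts of the next 2 lists are to be read against the same shares. Proteins that switch helicases on, such as the MIF4G and G-patch cofactors, had 8 higher and 2 lower of 24 tested in Ctrl, and an interaction for 1, which was lower. The granule partners of DDX3X and DDX6, such as G3BP1, CAPRIN1 and LSM14A, had 1 higher and 4 lower of 14 in Ctrl, and 2 higher and 1 lower in the interaction.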

How the data were processed

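Ribosomal RNA-depleted RNA of 24 libraries was sequenced, and the deposited tables hold counts of uniquely aligned fragments per gene on exons and on introns. Per the labels and the study's methods, the authors aligned reads with STAR 2.7.2b to GRCh38.p13 and counted fragments on GENCODE 40 genes with featureCounts 1.5.3, without strand; an intron is what merged exons leave of a gene, and intron fragments needed an overlap of 25 bases or more. The deposited counts are raw and were used as such.

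Genes averaging 1 CPM or more by library size alone were kept, scaled by TMM (printed CPM values include the TMM factors) and fitted with edgeR 4.0.16 (R 4.3.3) in 1 model of the 8 groups, separately for exons and introns. Contrasts were tested with edgeR's quasi-likelihood F test, p-values were adjusted by Benjamini-Hochberg over all genes tested, and genes with an adjusted p under 0.05 were called. The SE is the log2 fold change divided by the square root of F. Named members are those with the smallest adjusted p per contrast and direction, averaging 10 CPM or more on exons or 2 CPM on introns, beside DDX3X and the paralog pairs; others are named by counts or were chosen after their values were seen. The members and lists were chosen with earlier results of these data known.

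Alternatives were RLE factors, library size alone, no filter, glmLRT, DESeq2 1.42.0, the compared groups alone, replicate blocks, exon plus intron counts, exon scaling of introns, and each library left out. In simulated counts of 17544 genes for the Ctrl fraction contrast on exons, 60 of 100 genes changed by 1 on the log2 scale were called and 6 of 99 changed by 0.5, with 1 false call. No other genes were changed there, whereas 4310 genes were called higher and 4707 lower in this contrast of the data. The simulated rates therefore need not hold for the data. Replicates are 3 repeats of the experiment, per the study's methods. Replicate numbers were not taken to pair samples in the main fits. Blocked values are given beside them for the insoluble fraction of Combo against NaAsO2. There all 3 same-number correlations were over 0.1, but those between replicates 1 and 2 were as well. The circular RNA table was searched for member host genes only.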

Additional observations from a re-analysis of the deposited data

Results flagged for a closer look

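The fraction effect differed between treatments, by an interaction test on exon counts with an adjusted p under 0.05, in 21 cases. Against Ctrl, it was lower after NaAsO2 for DHX9 by a log2 difference of -1.82, DDX1 -1.75, DDX43 -1.59, DHX29 -1.38, DDX47 -1.38, DDX10 -1.15, DHX57 -0.97, DHX15 -0.92, DDX46 -0.87, DDX31 -0.83, DDX24 -0.79, DHX36 -0.76, DDX27 -0.76, DDX5 -0.73, DDX50 -0.64 and DDX39A -0.56, and higher for DHX33 by 0.52. With RK-33 it was lower for DHX9 by -1.27, DDX1 -1.04, DDX27 -0.83 and DDX24 -0.68. Both sets use the same Ctrl libraries. Replicate 3 of the NaAsO2 insoluble fraction stood apart from the other 2, and without it 20 members were called for NaAsO2 in place of 17. Without it and with the compared groups alone, the difference was -1.56 for DHX9, -1.68 for DDX1, -1.08 for DHX29 and 0.62 for DHX33. For NaAsO2, 11 members were called with the compared groups alone and all their libraries, and 10 without a filter on low counts.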

How the results depend on the processing

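Of 873 alternatives of the 27 member counts, 776 stayed within 1.5 times. Of 4173 alternatives of 129 named values, 3978 kept direction and side of the threshold, 141 lost the call, 5 gained it with the same sign (all DDX3X) and 49 changed sign. On introns, the fraction effect of DDX3X was called higher in Ctrl with exon scaling (0.75, adjusted p = 0.0353). With RK-33 it was called lower with library size alone (-0.53, adjusted p = 0.0239). The cause was not tested in any case. Each setting below gives members called unless a direction is named.

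With RLE factors, Combo against NaAsO2 (insoluble) gave 8. Without a filter, RK-33 had 12 higher in the insoluble fraction, RK-33 against Ctrl (insoluble) 1, Combo against NaAsO2 (insoluble) 7, and the NaAsO2 and RK-33 interactions 10 and 2; intron RK-33 against Ctrl (insoluble) had 3. glmLRT gave 7 for Combo against NaAsO2 (insoluble) and 3 for intron RK-33 (insoluble). DESeq2 gave 2 and 8 for Combo against NaAsO2 (soluble, insoluble) and 3 for intron RK-33 (insoluble). Exon plus intron counts gave 13 higher after NaAsO2, 5 and 3 for RK-33 against Ctrl (soluble, insoluble), and 2 and 8 for Combo against NaAsO2. Library size alone gave 14 for the intron NaAsO2 fraction effect and 0 for intron RK-33 (insoluble).

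With the compared groups alone, Ctrl had 7 lower, NaAsO2 9 higher and 6 lower, NaAsO2 against Ctrl 30 and 3 (soluble, insoluble), RK-33 against Ctrl 17 and 18, Combo against NaAsO2 7 and 0, and the interactions 11 and 14. On introns this gave 1 for the NaAsO2 fraction effect, 6 for NaAsO2 against Ctrl (insoluble), 2 and 12 for RK-33 against Ctrl, and 4 for Combo against NaAsO2 (insoluble). Also without NaAsO2 insoluble replicate 3, chosen after seeing the data, Combo against NaAsO2 (insoluble) gave 0 on exons and 11 on introns. Exon scaling of introns gave 3, 27 and 2 for the NaAsO2, RK-33 and Combo fraction effects, 29 for NaAsO2 against Ctrl (insoluble), 7 for Combo against NaAsO2 (insoluble) and 0 for RK-33 (insoluble).

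With the replicate number as a block, exons gave 25 and 20 for NaAsO2 and RK-33 against Ctrl (soluble), 5 for Combo against NaAsO2 (soluble), 1 for RK-33 against Ctrl (insoluble) and 1 for Combo against NaAsO2 (insoluble), and introns 0 for RK-33 (insoluble). Named calls lost under this block were those of DHX33, DDX5 and DHX9 for RK-33 against Ctrl (insoluble; adjusted p = 0.153, 0.0662 and 0.145), of DDX31 and DDX5 for Combo against NaAsO2 (insoluble), and of DHX34, DDX39A and DHX38 on introns. With the lysate as a block, the Ctrl counts were 29 and 4. Same-number deviations correlated at -0.288 to 0.11 between fractions of a lysate, with 1 of 12 over 0.1, and at -0.215 to 0.667 between treatments, with 4 of 18 over 0.1 on exons. The 4 include all 3 pairs of the Combo and NaAsO2 insoluble fractions (0.459, 0.383 and 0.667, and on introns 0.279, 0.204 and 0.486). Different-number pairs of replicates 1 and 2 also correlated in this comparison (0.593 and 0.25 on exons), so the numbers may not pair the samples. There introns had 20 calls with the block.

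Leaving out 1 library gave 7 to 27 for NaAsO2 against Ctrl (soluble), 2 to 18 and 2 to 14 for RK-33 against Ctrl, 0 to 4 and 2 to 11 for Combo against NaAsO2, and 3 to 14 for the RK-33 interaction. On introns it gave 9 to 17 and 6 to 20 for the Ctrl and Combo fraction effects, 1 to 3 for NaAsO2 against Ctrl (soluble), 0 to 1 and 0 to 5 for RK-33 against Ctrl, and 5 to 13 for Combo against NaAsO2 (soluble). The values 27, 18, 14, 4, 5 and 13 came without NaAsO2 insoluble replicate 3, the 11 without replicate 1 of that group, the 9 without Ctrl soluble replicate 2 and the 6 without Combo soluble replicate 2.

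Sign changes other than DHX8 introns with RK-33 (0.021 with exon scaling) were all of DDX3X. Of those below, the exon value of 0.21 (adjusted p = 0.0415) and the intron value of 0.80 (adjusted p = 0.0176) passed the threshold. On exons they were -0.032 for NaAsO2 against Ctrl (soluble) and 0.051 for the RK-33 interaction with library size alone, -0.043 and -0.028 for the RK-33 and Combo fraction effects without a filter, and -0.045, -0.16 and -0.038 for the Ctrl, RK-33 and Combo fraction effects and 0.11 for NaAsO2 against Ctrl (insoluble) with exon plus intron counts. Without NaAsO2 insoluble replicate 3 and with the compared groups alone they were 0.21 for the NaAsO2 fraction effect, 0.22 against Ctrl (insoluble), 0.075 for the NaAsO2 interaction and -0.20 for that of Combo. On introns they were -0.29 and -0.096 for the Ctrl and NaAsO2 fraction effects with library size alone, 0.016 for that of Combo without a filter, 0.029 for it and 0.0021 for NaAsO2 against Ctrl (soluble) with the compared groups alone, 0.80, 0.19 and -0.62 for the RK-33 and Combo fraction effects and NaAsO2 against Ctrl (insoluble) with exon scaling, and -0.024 and -0.11 for the NaAsO2 fraction effect and NaAsO2 against Ctrl (insoluble) without the library that stood apart.

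Leaving out 1 library, DDX3X exons ranged from -0.42 to 0.13 for Combo against NaAsO2 and -0.37 to 0.19 for NaAsO2 against Ctrl (both insoluble), -0.20 to 0.38, -0.52 to 0.058 and -0.16 to 0.0037 for the Combo, NaAsO2 and RK-33 interactions, and -0.067 to 0.11 and -0.35 to 0.18 for the Combo and NaAsO2 fraction effects. Its introns ranged from -0.091 to 0.24 and -0.17 to 0.072 for NaAsO2 against Ctrl (insoluble, soluble), -0.068 to 0.20 for RK-33 against Ctrl (insoluble), and -0.064 to 0.078, -0.088 to 0.14, -0.024 to 0.37 and -0.23 to 0.041 for the Combo, Ctrl, NaAsO2 and RK-33 fraction effects. Among the tested members, DDX58 had the fewest exon counts over all libraries, 754, and DDX19B the fewest intron counts, 73.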
